A study of Homo sapiens with 8 samples.

Results

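The genes described here are members of the cholesterol synthesis pathway, measured in 2 human acute myeloid leukemia cell lines with and without diclofenac. They were chosen by name, with earlier results of these data known, so their counts beside those of all genes are descriptions. The list held 8 genes: HMGCS1, IDI1, FDFT1, SQLE, CYP51A1, MSMO1, DHCR7 and INSIG1. Of these, 7 were found among the 12246 genes represented on the arrays, through 15 of 22215 probe sets, and FDFT1 was not analysed here. The list was proposed as cholesterol synthesis and uptake genes, but 6 of the 7 encode enzymes of synthesis, INSIG1 encodes a regulator of it, and none encodes an uptake receptor.

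Cells make cholesterol from acetyl-CoA through mevalonate, isoprenoid units, squalene and lanosterol, by enzymes that lie mostly on the endoplasmic reticulum. When sterols in the membrane of this organelle run low, the escort protein SCAP carries the transcription factor SREBP-2 to the Golgi, where proteases release its active part, which then raises transcription of nearly every gene of the chain. INSIG1 holds SCAP back when sterols are plentiful, and it is itself an SREBP target. Leukemic myeloid cells can both make cholesterol and take it up from serum lipoproteins.

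Gene expression was measured with 8 Affymetrix arrays, 2 in each of 4 groups titled as biological replicates. THP-1, a monocytic leukemia line, received 100 µM diclofenac or an equal amount of the solvent DMSO for 48 h. HL-60, a promyelocytic leukemia line, received the same drug, a non-steroidal anti-inflammatory inhibitor of the cyclooxygenases, or DMSO. Both lines grew in RPMI-1640 with 10% fetal bovine serum, which contains lipoproteins, and each is 1 established line.

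Signals below are intensities after log2 transformation, quantile normalization and return to the linear scale, and the number of arrays limits their precision. THP-1 DMSO replicate 2 was unlike the rest. The median intensity of its bacterial controls, which have no target in human RNA, was 78 where the remaining arrays had 5.6 to 24.6, and 50.3% of its probe sets exceeded background, against 66.4% to 72.1%. Its correlation with THP-1 DMSO replicate 1 was 0.892, whereas the other replicate pairs had 0.975 to 0.984. THP-1 changes that move by over 1.5 times without it are given both ways. Of the promyelocyte granule markers, MPO was dim, at 127.3 to 231 on the THP-1 arrays and 36.2 to 73.6 on the HL-60 arrays, whereas the granule protease ELANE was bright, at 13691 to 16315 in THP-1 and 12236.4 to 13224.9 in HL-60. AZU1 and PRTN3 were, like MPO and ELANE, higher on every THP-1 array than on any HL-60 array. CTSG with DMSO was lower in THP-1, at 11879.9 and 10916.5 against 14736.6 and 14411.6 in HL-60. MYB with DMSO was too, at 5548.4 and 5831.8 against 6549.9 and 6910.6. The list of 6 includes MYB, a transcription factor rather than a granule protein. The 6 summed to 48144.9 to 48415.9 in THP-1 with diclofenac and 53885.2 to 55062.2 with DMSO. In HL-60 they summed to 33534.8 to 34798.5 with diclofenac and 39849.5 to 40098.8 with DMSO. The monocyte receptor CD14 differed by treatment in THP-1, with 344.3 and 333.4 with diclofenac and 69.2 and 11.5 with DMSO, and was above background on 3 of 8 arrays, all of THP-1. The macrophage marker CD68 had 211.2 and 162.9 in THP-1 with diclofenac and 85.6 and 23.1 with DMSO. The low CD14 and CD68 values of 11.5 and 23.1 were those of DMSO replicate 2. ITGAM and LYZ also read higher in THP-1 with diclofenac: 267.2 and 235 against 168.1 and 192.5, and 15363.5 and 13903.2 against 13755.4 and 11847.7. CSF1R went the other way, at 267.8 and 242.4 against 282.6 and 335.2. FCGR1A overlapped in THP-1, at 61.4 and 96.6 against 58.5 and 142.9. In HL-60 too, both diclofenac arrays lay above both DMSO arrays for CD68 (115.8 and 163.4 against 21.3 and 93.6) and ITGAM (294.6 and 268.2 against 243.3 and 239.5). The same held there for FCGR1A (67.6 and 74.6 against 26 and 31.4), as for 21.0% of all genes. CD14, LYZ and CSF1R overlapped in HL-60. CD68 and FCGR1A were each above background on 6 of 8 arrays. The 6 monocytic markers, most of whose sum was LYZ, summed to 14973.5 to 16515.4 in THP-1 with diclofenac and 12552.9 to 14419.4 with DMSO, and to 12834.8 to 16329.9 in HL-60 with diclofenac and 14563.1 to 14766.5 with DMSO. Of 8 lymphoid, erythroid, epithelial and fibroblast markers, the epithelial EPCAM and KRT19 were above background on 0 of 8 arrays. HBB and COL1A1 were above it on 8 of 8, CD3E on 7, COL1A2 on 6, MS4A1 on 5 and CD3D on 3. The 8 together summed to 494 to 595.1 in THP-1 with diclofenac and 481.7 to 1319.6 with DMSO. The HL-60 sums were 563.5 to 683.6 with diclofenac and 646.8 to 936.1 with DMSO. The part of these marker levels in the results below was not tested.

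In HL-60, MSMO1 and HMGCS1 had the largest differences between diclofenac and DMSO arrays, but none of the 7 genes passed the test across all probe sets. All 7 log2 changes were above 0, with a median of 0.35 and a range of 0.03 to 0.8, where 50.2% of all genes were above 0 and their median was 0. On 5 genes, HMGCS1, SQLE, CYP51A1, MSMO1 and INSIG1, both diclofenac arrays lay above both DMSO arrays, as they did for 21.0% of all genes. The same 5 stood apart on the deposited scale. In RNA from whole cultures, a change in the share of cells that express a gene and a change in the RNA per cell cannot be told apart. With limma and Benjamini-Hochberg adjustment 0 of 7 were called, against 1 of 12246 genes higher (0.00817%) and 0 lower (0.0%), and 2 of 7, MSMO1 and HMGCS1, were higher at an unadjusted p under 0.05, against 2.52% of all genes.

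MSMO1, the methylsterol oxidase that begins to strip the methyl groups at carbon 4 of lanosterol-derived sterols, had the largest change of the 7. Its signal was 832.3 and 986.5 in HL-60 with diclofenac, against 485.3 and 512.5 with DMSO. The gap between the groups was wider than the gap within either. The log2 change was 0.80 ± 0.13 (SE, n = 2 arrays per group, 95% interval 0.49 to 1.11), a 1.74-fold difference with a limma adjusted p of 0.32. Leaving out any array gave 0.68 to 0.91. One probe set measures MSMO1, so no second reading of the gene was available.

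HMGCS1, the cytosolic synthase that joins acetyl-CoA to acetoacetyl-CoA at the entrance of the mevalonate pathway, came next. Its brighter probe set read 730.3 and 642.4 in HL-60 with diclofenac, against 383.2 and 464.9 with DMSO, without overlap. The log2 change was 0.64 ± 0.14 (95% interval 0.31 to 0.97), or 1.56-fold, with a limma adjusted p of 0.62. The dimmer HMGCS1 probe set did not share this direction. It read 159.6 and 137.1 with diclofenac, against 215.7 and 157 with DMSO, a log2 change of -0.24 ± 0.28 with overlapping groups.

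The promoter windows of MSMO1, HMGCS1 and INSIG1 are shown because MSMO1 and HMGCS1 had the largest HL-60 changes and INSIG1 is the regulator among the 7. Each is the first window that RefSeq lists for the gene on build GRCh38.p14, from 250 bases before to 50 after the start. MSMO1 lies on the plus strand at chr4:165327419-165327718, HMGCS1 on the minus strand at chr5:43313363-43313662 and INSIG1 on the plus strand at chr7:155297628-155297927. Capitals mark the motif CCAAT on either strand (ATTGG as read here) and, in INSIG1, a match to CACNCCAC on the reverse strand.
MSMO1: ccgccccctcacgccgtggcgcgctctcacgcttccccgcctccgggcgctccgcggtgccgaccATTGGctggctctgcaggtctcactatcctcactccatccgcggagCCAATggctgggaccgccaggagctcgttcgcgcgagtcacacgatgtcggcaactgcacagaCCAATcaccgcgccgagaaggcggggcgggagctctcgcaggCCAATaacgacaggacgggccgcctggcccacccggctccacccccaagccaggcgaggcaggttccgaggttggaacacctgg
HMGCS1: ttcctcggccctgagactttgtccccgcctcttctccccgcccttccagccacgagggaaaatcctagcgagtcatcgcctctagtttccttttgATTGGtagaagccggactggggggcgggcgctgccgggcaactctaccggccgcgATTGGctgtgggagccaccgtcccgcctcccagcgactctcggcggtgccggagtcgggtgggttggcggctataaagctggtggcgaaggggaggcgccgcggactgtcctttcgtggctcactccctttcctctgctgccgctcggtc
INSIG1: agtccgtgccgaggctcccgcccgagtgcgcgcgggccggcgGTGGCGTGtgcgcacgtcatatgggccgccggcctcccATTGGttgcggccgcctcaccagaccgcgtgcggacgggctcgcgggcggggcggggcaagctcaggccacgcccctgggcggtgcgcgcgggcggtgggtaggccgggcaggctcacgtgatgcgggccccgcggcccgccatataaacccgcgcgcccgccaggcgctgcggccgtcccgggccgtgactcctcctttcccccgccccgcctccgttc
CCAAT is the motif that the factor NF-Y, a known partner of SREBPs, binds. MSMO1 held 4 copies, at 185, 139, 76 and 34 bases before the start. HMGCS1 held 2, at 155 and 100 bases before it, and INSIG1 held 1. In all, 10 windows of 6 of the 7 genes were listed, and SQLE is named only. CCAAT was in 6 of the 10 windows, against 34.6% of all 35116 windows, and in at least 1 window of 5 genes, with none in that of CYP51A1. The letters GGGCGG, bound by Sp1, were in 9 of the 10 windows, against 45.0% of all. The sterol element letters TCACNCCAC were in 0 of the 10, against 1.13% of all. The shorter CACNCCAC, which every TCACNCCAC contains, was in 2, 1 of INSIG1 and 1 of IDI1, against 5.87%. Both strands were searched, and these matches describe letters only.

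The remaining sterol branch enzymes gave smaller HL-60 values. SQLE, the squalene epoxidase that adds the first oxygen on the way to sterols, read 1646.1 and 1501.7 with diclofenac, against 1328.3 and 1277.6 with DMSO in HL-60, a log2 change of 0.26 ± 0.12 (95% interval -0.02 to 0.55, limma adjusted p = 1). Its groups did not overlap by this probe set, whereas the other 2 SQLE probe sets had 0.17 ± 0.43 and 0.12 ± 0.25 with overlapping groups. CYP51A1, the cytochrome P450 that removes the methyl group at carbon 14 of lanosterol, read 853.7 and 1044 with diclofenac, against 642.6 and 789 with DMSO in HL-60 (0.38 ± 0.18, 95% interval -0.02 to 0.79, adjusted p = 1). The annotation gives both CYP51A1 probe sets a second symbol, LRRD1, and the one used here was built from a RefSeq transcript of CYP51A1. The other, which cannot be given to 1 of the 2 genes, had 0.17 ± 0.20.

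DHCR7, the reductase that makes cholesterol from 7-dehydrocholesterol in the last step, was the dimmest reading, above background on 7 of 8 arrays. It read 318.7 and 340.8 with diclofenac, against 344.2 and 274.9 with DMSO in HL-60. These groups overlapped, and the log2 change of 0.09 had a 95% interval of -0.67 to 0.84, which is too wide to tell a fall of 1.5-fold from a rise of 1.5-fold. Its second probe set had 0.31 ± 0.33, with both diclofenac arrays above both DMSO arrays.

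IDI1, the isomerase that supplies the second isoprenoid building block, showed no separation in HL-60. It read 1634.5 and 1477.4 with diclofenac, against 1615.7 and 1424.6 with DMSO. Its log2 change of 0.03 had a narrow 95% interval, from -0.21 to 0.27, and its other probe set had 0.08 ± 0.16. Both IDI1 probe sets are of the kind that may bind several transcripts.

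INSIG1, the sterol sensor that restrains SCAP, read 1041 and 1172.5 with diclofenac, against 816 and 895.9 with DMSO in HL-60, by its brightest probe set. The diclofenac arrays were the higher pair, with a log2 change of 0.35 ± 0.17 (95% interval -0.05 to 0.75, limma adjusted p = 1). A second probe set had 0.05 ± 0.15 with overlapping groups, and the third 0.43 ± 0.21 with the diclofenac arrays above.

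**Figure D1:**
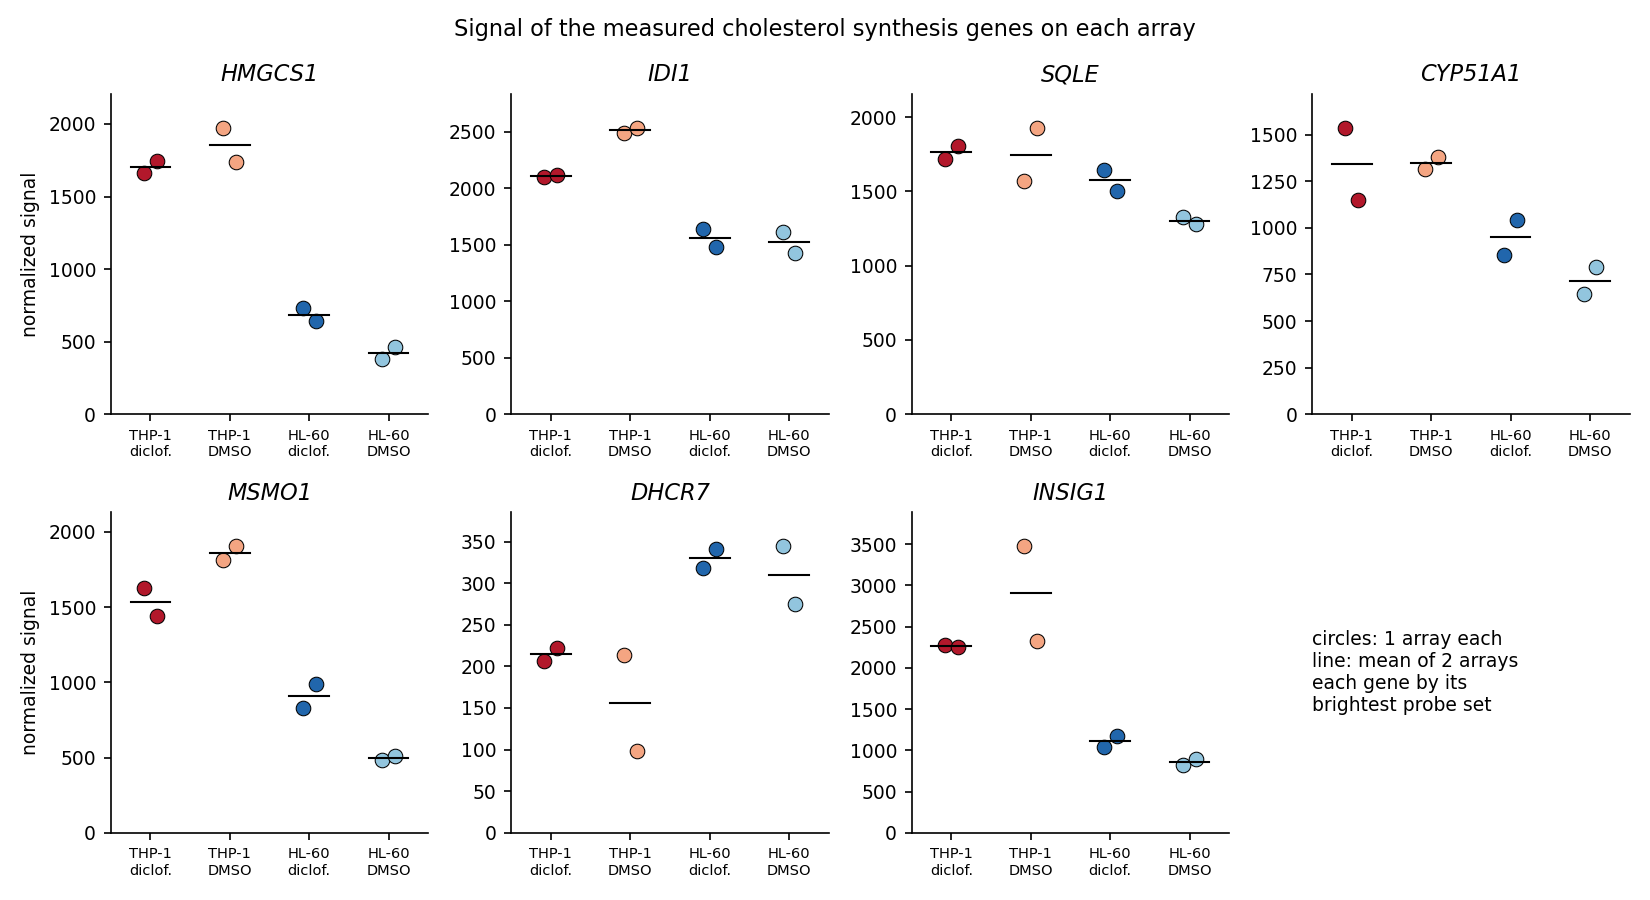
Normalized signal (linear axis from 0) of each of the 7 genes on the 8 arrays, by the probe set that represents the gene. Circles are single arrays and horizontal lines the mean of 2. MSMO1 and HMGCS1 show the step between the HL-60 groups and the larger step between the lines, whereas DHCR7 alone was lower in THP-1 than in HL-60.

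In THP-1 the same genes did not share a direction. The log2 changes had a median of -0.12 and ran from -0.32 to 0.42, with 2 of 7 above 0, where all genes had a median of -0.01 and 48.6% above 0. The median was -0.21 with DMSO replicate 2 left out. None of the 7 was called by limma, against 19 genes higher (0.155%) and 1 lower (0.00817%), and at an unadjusted p under 0.05 there was 1 lower, IDI1, against 5.5% of all genes, and 0 higher, against 6.21%. For IDI1, MSMO1 and INSIG1 both diclofenac arrays lay below both DMSO arrays, as for 21.2% of all genes. On the deposited scale these 3 overlapped, and SQLE and DHCR7 were then the 2 with both diclofenac arrays above, whereas on the normalized scale there was none, against 19.4% of all genes. The direction in THP-1 also depended on scaling: with each array centred on its median all 7 were above 0, with a median of 0.34 where all genes had 0.20, and without quantile normalization the median was -0.02 where all genes had -0.16.

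IDI1 read 2102.9 and 2119.2 in THP-1 with diclofenac, against 2489.2 and 2533.5 with DMSO. The replicates lay close together, and the log2 change was -0.25 ± 0.10 (SE, 95% interval -0.48 to -0.01, limma adjusted p = 0.46), and 0.24 under median centring. MSMO1 read 1629.9 and 1438.1 with diclofenac, against 1816.6 and 1903.9 with DMSO (-0.27 ± 0.13, adjusted p = 0.49). INSIG1 read 2282.1 and 2256.6 with diclofenac, against 3472.9 and 2331.4 with DMSO. Here the DMSO replicates differed far more than the diclofenac ones, and the log2 change of -0.32 ± 0.17 (adjusted p = 0.51) was -0.61 without THP-1 DMSO replicate 2 and -0.04 without replicate 1.

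HMGCS1 read 1665.5 and 1745.5 in THP-1 with diclofenac, against 1973.3 and 1736.9 with DMSO. The groups overlapped, with a log2 change of -0.12 and a 95% interval of -0.45 to 0.22. SQLE had 0.02 (95% interval -0.27 to 0.3) and CYP51A1 -0.02 (-0.43 to 0.39), both with overlapping arrays. With DMSO replicate 2 left out, HMGCS1 had -0.21, SQLE 0.17 and CYP51A1 0.02. DHCR7 read 206.4 and 222.4 with diclofenac, against 213.6 and 98.8 with DMSO, where the low value was that of replicate 2, the array on which DHCR7 was not above background. Its log2 change of 0.42 ± 0.33 was 0 without that array. When replicate 1 was left out instead, the comparison rested on the array that did not detect DHCR7, with a spread taken from the remaining groups. DHCR7 then passed the test (adjusted p = 0.028), and the level with diclofenac was at least 1.47-fold higher on the normalized scale, whereas the deposited intensities were 196.4 and 200.6 with diclofenac and 193.3 on that array.

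The difference between the diclofenac effects of the 2 lines asked whether a gene responded unlike in THP-1 and HL-60. The difference, THP-1 minus HL-60, was below 0 for 6 of 7 genes, with a median of -0.4 where all genes had -0.01 and 51.3% were below 0. None was called by limma, against 0 of 12246 genes in either direction (0.0%) and 1 of 22215 probe sets (0.0045%). At an unadjusted p under 0.05 there were 3 genes lower, against 3.51% of all genes: MSMO1 (-1.07 ± 0.19, adjusted p = 0.29), HMGCS1 (-0.75 ± 0.20, adjusted p = 0.49) and INSIG1 (-0.67 ± 0.25, adjusted p = 0.65). No difference between the lines in their response was therefore called for any of the 7 genes. The other probe sets varied: that of HMGCS1 had 0.16 ± 0.39, and those of INSIG1 -0.04 ± 0.21 and -0.79 ± 0.30. Without THP-1 DMSO replicate 2 the difference was -1.07 for MSMO1, -0.87 for HMGCS1 and -0.97 for INSIG1, again with 0 calls. When replicate 1 was left out instead, so that replicate 2 was the only array of THP-1 with DMSO and its spread was assumed to be that of the remaining groups, MSMO1 (-1.09, adjusted p = 0.0088) and HMGCS1 (-0.66, 0.045) were called.

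**Figure D2:**
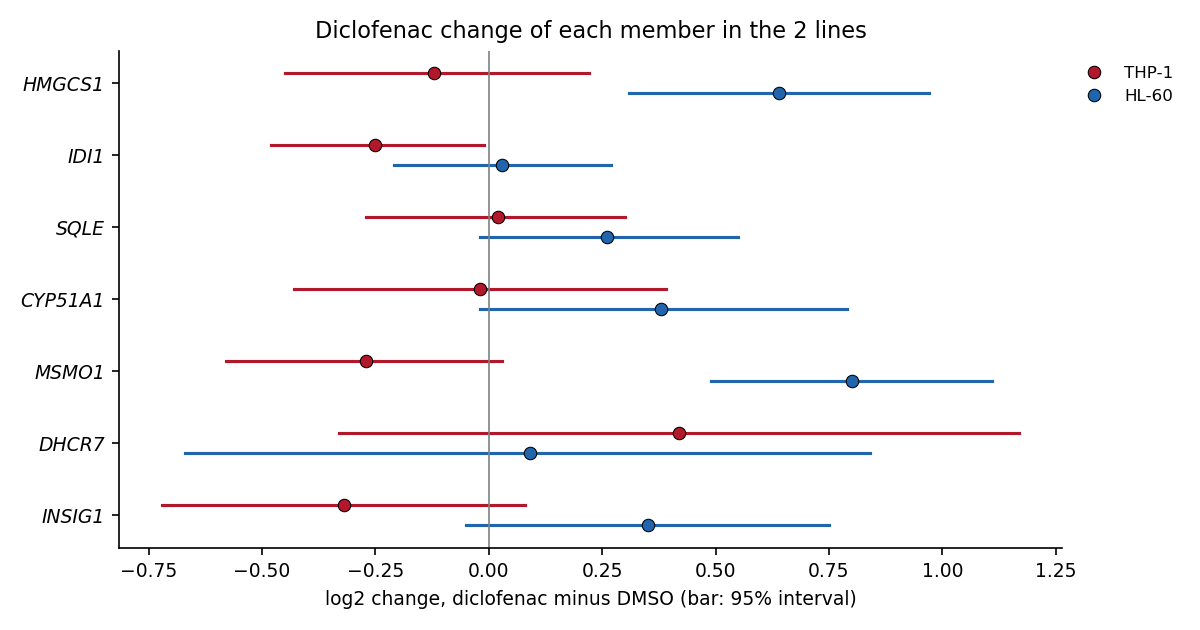
Log2 change of each gene, diclofenac minus DMSO, in THP-1 (red) and HL-60 (blue), with bars for the 95% interval of the limma fit. The HL-60 intervals of MSMO1 (0.49 to 1.11) and HMGCS1 (0.31 to 0.97) lie above 0 before adjustment, and most THP-1 values lie at or below 0.

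The largest differences among these genes were between the cell lines. With DMSO alone, 5 of 7 genes were higher in THP-1 than in HL-60, where 9.27% of all genes were: HMGCS1, MSMO1, INSIG1, CYP51A1 and IDI1. None was lower, where 9.33% of all genes were. The members' median log2 difference was 0.87, and that of all genes 0.03. For 6 genes both THP-1 arrays lay above both HL-60 arrays, as for 26.8% of all genes, and the same 6 did so on the deposited scale. Differences between 2 lines may come from any of the ways in which they differ, since each leukemia type is represented by 1 line.

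HMGCS1 read 1973.3 and 1736.9 in THP-1 with DMSO, against 383.2 and 464.9 in HL-60 with DMSO. It was 4.03-fold higher in THP-1 (log2 difference 2.01 ± 0.14, limma adjusted p = 5e-05), and its dimmer probe set was 1.98-fold higher (0.99 ± 0.28, adjusted p = 0.048). MSMO1 was 3.48-fold higher, with 1816.6 and 1903.9 in THP-1 against 485.3 and 512.5 in HL-60 (1.80 ± 0.13, adjusted p = 5.9e-05). These 2 were also called under median centring, when the other 3 were not.

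INSIG1 read 3472.9 and 2331.4 in THP-1 with DMSO, against 816 and 895.9 in HL-60, a 3.2-fold difference (1.68 ± 0.17, limma adjusted p = 0.00035). All 3 of its probe sets were called, the others at 0.97 ± 0.15 and 1.47 ± 0.21. CYP51A1 was 1.83-fold higher (0.87 ± 0.18, adjusted p = 0.012), with 1314.9 and 1377 in THP-1 against 642.6 and 789 in HL-60, and it was not called without HL-60 DMSO replicate 1. IDI1 was 1.63-fold higher (0.71 ± 0.10, adjusted p = 0.0024), with 2489.2 and 2533.5 in THP-1 against 1615.7 and 1424.6 in HL-60.

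SQLE and DHCR7 did not pass. SQLE read 1568 and 1927 in THP-1 with DMSO, against 1328.3 and 1277.6 in HL-60 (0.40 ± 0.12, limma adjusted p = 0.065). Another SQLE probe set had -0.28 ± 0.43. DHCR7 was the 1 gene with both THP-1 arrays below both HL-60 arrays, as for 25.9% of all genes, at 213.6 and 98.8 against 344.2 and 274.9. Its log2 difference was -0.85 ± 0.33 (adjusted p = 0.13), and -0.46 without THP-1 DMSO replicate 2. SQLE was called, at 0.54 (adjusted p = 0.004), when replicate 1 was left out instead, with a spread taken from the remaining groups. DHCR7 also passed the test then (adjusted p = 0.0036), but against 1 array on which it was not above background, so that its level in THP-1 is only bounded there and HL-60 was at least 1.99-fold higher.

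With diclofenac, 4 of 7 genes were higher in THP-1 than in HL-60, where 8.36% of all genes were, and 0 were lower, where 7.64% were. HMGCS1 was 2.39-fold higher (1.26 ± 0.14, limma adjusted p = 0.00067), INSIG1 2.01-fold (1.01 ± 0.17, 0.0059), MSMO1 1.65-fold (0.73 ± 0.13, 0.008) and IDI1 1.35-fold (0.43 ± 0.10, 0.029). CYP51A1 had 0.47 ± 0.18 (0.15), SQLE 0.16 ± 0.12 (0.57) and DHCR7 -0.52 ± 0.33 (0.44). The median was 0.47, beside 0.87 with DMSO. For 6 genes both THP-1 arrays were the higher ones (30.7% of all genes), and for DHCR7 they were the lower ones (31.7% of all genes). How far the 2 sets of values differ is by construction the difference of the diclofenac effects given above, in which no gene was called. IDI1 was the least stable call: it was lost without quantile normalization (adjusted p = 0.072), without the intensity trend (0.15), with the replicate block (0.051), by the mean of its probe sets (0.065), by its second probe set (0.27, adjusted p = 0.43) and without any 1 of the 4 diclofenac arrays. HMGCS1 alone was called without HL-60 diclofenac replicate 1 and without THP-1 diclofenac replicate 1, HMGCS1 and MSMO1 without THP-1 diclofenac replicate 2, and none of the 7 under median centring.

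Averaged over both lines, the diclofenac change was above 0 for 6 of the 7 genes, where it was for 49.3% of all genes, and the median of the 7 was 0.18. None was called by limma, against 15 genes higher (0.122%) and 3 lower (0.0245%). MSMO1 (0.26 ± 0.09, adjusted p = 0.61) and HMGCS1 (0.26 ± 0.10, 0.65) were higher at an unadjusted p under 0.05, as were 4.47% of all genes.

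The order of the 4 group means was the same for 5 of the 7 genes, HMGCS1, MSMO1, INSIG1, CYP51A1 and IDI1: THP-1 with DMSO, THP-1 with diclofenac, HL-60 with diclofenac, HL-60 with DMSO, going down. The share of all genes with this order was not counted, so the order is a description only. Some of its steps were near 0 with overlapping arrays, as for CYP51A1 in THP-1 (-0.02) and IDI1 in HL-60 (0.03). The step between the 2 THP-1 groups was called for none of the 5 and ran the other way under median centring (HMGCS1 0.34, MSMO1 0.19, INSIG1 0.15, CYP51A1 0.43, IDI1 0.24). Under that centring all genes had a median of 0.20 in THP-1, so MSMO1 and INSIG1 stayed below it. The step between the 2 HL-60 groups was called for none of the 5.

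**Figure D3:**
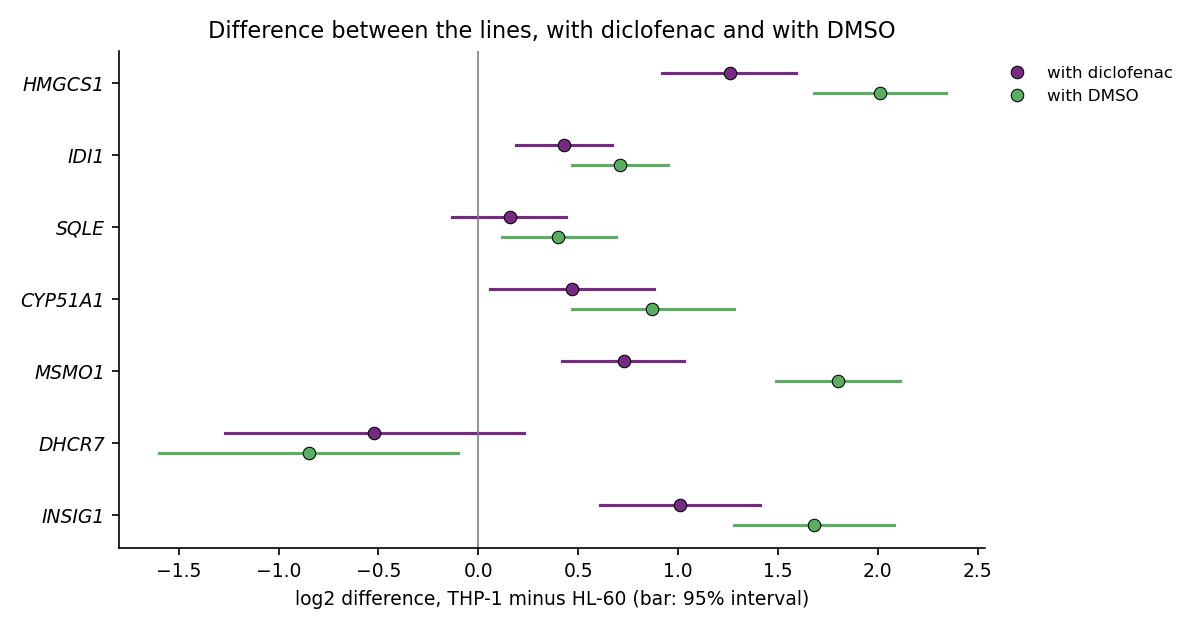
Log2 difference of each gene, THP-1 minus HL-60, with diclofenac (purple) and with DMSO (green), with bars for the 95% interval of the limma fit. HMGCS1, MSMO1 and INSIG1 lie farthest to the right, at 2.01, 1.8 and 1.68 with DMSO, and each lies nearer 0 with diclofenac.

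The rest of the pathway was read from 7 lists holding 61 further genes, of which 49 were measured. With diclofenac, 0 of the 49 passed limma's test in THP-1 and 0 in HL-60. At an unadjusted p under 0.05 there were 7 higher and 3 lower in THP-1, where 6.21% and 5.5% of all genes were, and 2 higher and 1 lower in HL-60, where 2.52% and 2.06% were. Each array of a line was also left out in turn, an alternative chosen after seeing the data. The medians of all 49 were 0.06 in THP-1 and 0.07 in HL-60.

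Among the 4 other early mevalonate genes the median was 0.08 in THP-1 and -0.13 in HL-60. MVK, the mevalonate kinase, stood at -0.01 in THP-1 and at -0.21 in HL-60, and MVD, the decarboxylase after it, was not above background in HL-60 with diclofenac and at least 1.29-fold higher there with DMSO. The 7 genes of the prenyl branch were centred on 0.24 in THP-1, or 0.04 when DMSO replicate 2 was dropped, and on 0.07 in HL-60, by their medians. FDPS, which makes farnesyl diphosphate, stood at -0.25 in THP-1 and at 0.14 in HL-60, in each line without overlap of the arrays. GGPS1, which makes the longer geranylgeranyl diphosphate, had 0.24 and -0.16, also without overlap. The farnesyltransferase subunits had 0.06 and 0.07 (FNTA) and 0.72 and 0.00 (FNTB), and PGGT1B, a subunit of the enzyme that attaches geranylgeranyl groups to proteins, 0.92 and 0.29. DHDDS, of dolichol synthesis, had 0.61 and 0.17, and COQ2, of ubiquinone synthesis, -0.29 and -0.01. With DMSO replicate 2 left out, the THP-1 values were 0.04 for PGGT1B and for GGPS1 and 0.16 for MVK, and the early mevalonate median was 0. In HL-60, FNTB ran between -0.38 and 0.38 and DHDDS between 0.00 and 0.34 with 1 array left out.

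The other 7 sterol branch genes had a median of 0 in THP-1 and 0.09 in HL-60. LSS, the lanosterol synthase between SQLE and CYP51A1, stood at -0.11 in THP-1 and at 0.12 in HL-60. NSDHL, which acts with MSMO1 in removing the carbon 4 methyl groups, had -0.18 and 0.37, and HSD17B7, the next enzyme of that complex, -0.39 and 0.31. LBR, a nuclear membrane protein with sterol reductase activity, had 0.57 and -0.27, and TM7SF2, a second such reductase, 0.42 in THP-1 and no level above background in HL-60. With DMSO replicate 2 left out, the THP-1 values were -0.46 for NSDHL and -0.20 for LSS, and the list's median was -0.20. In HL-60, HSD17B7 had 1.03 without DMSO replicate 1 and -0.40 without DMSO replicate 2, NSDHL had 0.15 and 0.60, and LBR had 0.01 without diclofenac replicate 1.

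The SREBP machinery had a median of -0.05 in THP-1 and of 0.2 in HL-60, where 7 of 7 measured genes were above 0 (50.2% of all genes). That count was 5 without HL-60 DMSO replicate 1 and 6 without HL-60 DMSO replicate 2. SREBF2, which encodes SREBP-2, stood at -0.35 in THP-1 and at 0.44 in HL-60, and SREBF1 0.13 and 0.48. SCAP had 0.15 and 0.34, INSIG2, the second INSIG, 0.23 and 0.20, and MBTPS1, the first Golgi protease, -0.24 and 0.14. SREBF1 in HL-60 rested on DMSO replicate 1, where its signal was 22.8 and it was not above background, and had -0.59 without that array and 1.55 without DMSO replicate 2. SCAP had 0.14 without HL-60 DMSO replicate 1. In THP-1, SREBF2 had 0.04 without diclofenac replicate 1 and -0.73 without diclofenac replicate 2. SREBF1 and SCAP had -0.03 and -0.08 in that line without diclofenac replicate 2. Both HL-60 diclofenac arrays lay above both DMSO arrays for 4 of the 7, SREBF2, SCAP, INSIG2 and MBTPS1, as for 21.0% of all genes. With THP-1 DMSO replicate 2 left out, the changes in that line were -0.22 for SREBF2, -0.17 for SREBF1, -0.32 for SCAP and -0.13 for INSIG2, and the median was -0.17.

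Uptake, trafficking and storage genes had a median of 0.26 in THP-1 and 0 in HL-60 over 10 genes. SOAT1, which esterifies cholesterol for storage, had 0.99 in THP-1 (limma adjusted p = 0.31) and -0.26 in HL-60, and LIPA, the lysosomal lipase that frees it again, 0.63 (adjusted p = 0.11) and -0.03. Without THP-1 DMSO replicate 2 the SOAT1 value was 0.60. NPC2, which hands cholesterol out of the lysosome, had 0.27 and 0.07. MYLIP, a ligase that degrades lipoprotein receptors, had 0.46 and 0.90, but its HL-60 value was 0.13 without DMSO replicate 1, where its signal was 55.3 against 260.4 on DMSO replicate 2, and its THP-1 value -0.25 once DMSO replicate 2 was dropped. The receptor genes VLDLR and LRP1 had 0.20 and 0.54 in THP-1, and 0.54 and -0.66 in HL-60. OSBP, an oxysterol-binding protein, had -0.33 and 0.12. With DMSO replicate 2 left out, the THP-1 values were 0.59 for VLDLR, 0.28 for LRP1, -0.12 for OSBP and 0.46 for NPC2. Without DMSO replicate 1 they were -0.17 for VLDLR, 0.80 for LRP1, -0.53 for OSBP and 0.09 for NPC2. LRP1 had 0.19 in THP-1 without diclofenac replicate 1 and 0.88 without diclofenac replicate 2. In HL-60, LRP1 had -0.40 and SOAT1 -0.40 without DMSO replicate 1, and OSBP -0.09 without diclofenac replicate 1.

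Fatty acid synthesis genes that answer to SREBP-1 had medians of -0.08 in THP-1 and 0.02 in HL-60 over 9 genes. FASN, the fatty acid synthase, had -0.49 and 0.10, and SCD, the stearoyl-CoA desaturase, -0.14 and 0.42 (adjusted p = 0.76 in HL-60). LPIN1 had -0.34 and 0.02, ELOVL5 0.02 and 0.17, and ELOVL6 -0.32 in THP-1, with no array above background in HL-60 with diclofenac. ME1, the malic enzyme, had 0.30 in THP-1 and was not above background in HL-60. The LXR and efflux list had a median of 0.92 in THP-1 and -0.04 in HL-60 over 5 genes, with APOE at 2.05 and -0.78, APOC1 at 1.04 in THP-1, the cholesterol exporter ABCA1 at 0.92 and -0.19, and ABCG1 at -0.53 and -0.04. APOC1 was not above background in HL-60. The APOE value was 1.14 without THP-1 DMSO replicate 2, on which its signal was 13.6, and none of the 5 was called. With the same array left out, ABCG1 had -0.18, SCD -0.24, ELOVL5 0.04 and the fatty acid list a median of -0.24 in THP-1. In HL-60, APOE had -0.40 and ABCA1 -0.44 without diclofenac replicate 1, and SCD had 0.26 without DMSO replicate 1. ABCA1 had 0.05 in HL-60 without diclofenac replicate 2, an array on which it was not above background.

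**Figure D4:**
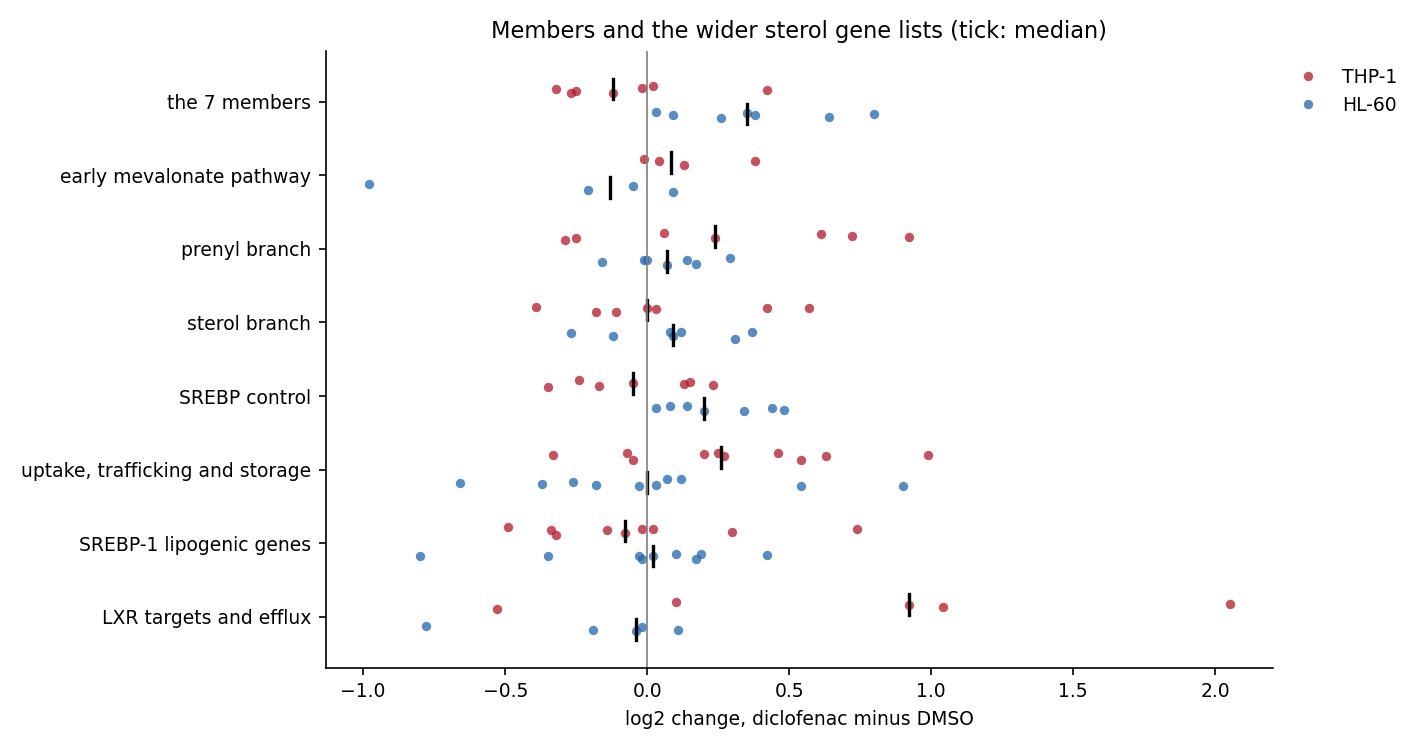
Log2 change, diclofenac minus DMSO, of the 7 members and of the measured genes of each further list, in THP-1 (red) and HL-60 (blue). Each circle is 1 gene and each black tick a median. The members' medians are -0.12 in THP-1 and 0.35 in HL-60, and the LXR and efflux genes reach 2.05 in THP-1.

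Between the lines with DMSO, the wider pathway did not follow the 5 called members in 1 direction. Of the 49 genes, 10 were higher and 10 lower in THP-1 by limma, where 9.27% and 9.33% of all genes were. Genes of the same branches fell on both sides: HSD17B7 (2.11 ± 0.40, adjusted p = 0.0082) and FDPS (0.78 ± 0.10, 0.0011) were higher, whereas LBR (-0.74 ± 0.17, 0.023), GGPS1 (-0.57 ± 0.16, 0.042) and DHDDS (-1.06 ± 0.27, 0.031) were lower. INSIG2 was lower in THP-1 (-1.10 ± 0.28, adjusted p = 0.033), opposite to INSIG1. EBP, the sterol isomerase (-1.55 ± 0.20, 0.001), PMVK, the phosphomevalonate kinase (-0.85 ± 0.14, 0.0036), and NPC1, the lysosomal cholesterol transporter (-2.31 ± 0.19, 9.5e-05), were lower as well, and these 3 were picked for naming from their values. ME1 was at least 11.48-fold higher in THP-1, and SCD had 0.98 ± 0.12 (0.00079).

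The pattern over arrays was compared with that of other genes after each line's mean was removed. Among 7347 genes above the 40th percentile of mean signal, the 5 closest to the members' mean were SRP14 (Pearson r = 0.989), IMPDH2 (0.976), DICER1 (0.974), UBE2V2 (0.958) and RPIA (0.956), over 8 arrays. Of the members themselves MSMO1 had 0.951 and HMGCS1 0.934, and IDI1 (0.328) and DHCR7 (0.085) were far from the mean they entered. Without THP-1 DMSO replicate 2, IDI1 had 0.431 and DHCR7 0.456, over 7 arrays. The arrays share normalization and the 8 values rest on 2 replicates per group, so these correlations are descriptions.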

How the data were processed

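The deposited value table held 1 linear intensity per probe set and array, and the software behind it is not given in the sources used here. Per the labels' protocols, biotin-labelled cRNA was made from total RNA. Intensities were turned to log2 of the value plus 50 and quantile-normalized, because the array medians ranged over 0.87 log2 units. Testing covered 22215 of 22277 probe sets, since 62 are array controls. The annotation pairs 19064 with 1 symbol and 1043 with several, of which 364 were settled by their RefSeq accession, and leaves 2108 unnamed here. To represent each of 12246 genes, the brightest probe set by mean log2 value was taken, and 1 named _x_at only for lack of another.

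A model with 1 mean per group was fitted to the 8 arrays by limma 3.58.1 (R 4.3.3), leaving 4 residual degrees of freedom beside 4.41 prior ones, with an intensity trend. Adjusted p-values follow Benjamini-Hochberg, taken over every probe set of a contrast, with a threshold of 0.05. A level counts as above background where it exceeds the array's 95th percentile over 27 bacterial control probe sets. Group and replicate number came from the titles. Same-numbered arrays had deviations correlated at -0.008 in THP-1 and at -0.004 in HL-60, and the fit has no block. The fit was tested on simulated data. Members and lists were chosen with earlier results of these data known. The rule for genes outside the members took, per list and line, up to 4 genes with the largest log2 change and no overlap of the arrays, and SREBF1, SREBF2, SCAP and INSIG2. Figures were drawn with matplotlib 3.10.9.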

Additional observations from a re-analysis of the deposited data

How the results depend on the processing

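No member was called for diclofenac in HL-60, or for the effect averaged over both lines, under any of the alternatives listed here: quantile normalization skipped or replaced by median centring, other offsets (16, 0), a filter on the dimmest 40%, a fit without the intensity trend, fits of 1 line alone (diclofenac within that line), a replicate block, a gene's mean or second probe set, a minimum log2 change of 1 and each array left out. Leaving out an array gave 0 to 1 calls in THP-1 (DHCR7, against 1 array that did not detect it), 0 to 2 for the difference of the effects, 4 to 7 between the lines with DMSO and 1 to 4 with diclofenac. Between the lines, median centring left 2 calls with DMSO and 0 with diclofenac, a minimum log2 change of 1 left 3 and 2, and the replicate block 5 and 3, with 0 calls in every diclofenac contrast, as without it. Under median centring the members' median was 0.34 in THP-1, 0.52 in HL-60, -0.11 for the difference, 0.46 for the average and 0.56 between the lines with DMSO, while all genes shifted by 0.20 in THP-1 and 0.11 in HL-60. It was 0.20 in HL-60 by the mean of probe sets, and 0.17 in HL-60 and -0.24 for the difference by the second probe set. These medians by the second probe set include MSMO1 and CYP51A1, which had no second 1 and kept their main values, 0.80 and 0.38 in HL-60. The genes with a second probe set had -0.24 (HMGCS1), 0.08 (IDI1), 0.17 (SQLE), 0.31 (DHCR7) and 0.05 (INSIG1) in HL-60. Without 1 array it ran from -0.60 to -0.28 for the difference and from 0.44 to 0.67 between the lines with diclofenac.

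Signs turned for values near 0 and for second probe sets. Under median centring the THP-1 values were 0.34 (HMGCS1), 0.24 (IDI1), 0.43 (CYP51A1), 0.19 (MSMO1) and 0.15 (INSIG1), the differences 0.03 (IDI1) and 0.07 (SQLE), and the average of IDI1 0.22. CYP51A1 had 0.08 in THP-1 without quantile normalization. By the second probe set HMGCS1 had -0.24 in HL-60, 0.16 for the difference and -0.16 for the average, INSIG1 0.02 in THP-1, SQLE 0.38 for the difference and -0.28 between the lines with DMSO, and DHCR7 -0.24 for the difference. Without 1 array the values ran from -0.05 to 0.12 (IDI1, HL-60), -0.05 to 0.23 (DHCR7, HL-60), -0.12 to 0.17 (SQLE, THP-1), -0.22 to 0.18 (CYP51A1, THP-1), -0.09 to 0.74 (DHCR7, difference) and -0.13 to 0.15 (INSIG1, average). The cause was not tested. The 942 comparisons with an alternative covered single genes, the members' medians and the counts of members called, and 868 were classed as unchanged. For single genes this class meant the same direction and side of the threshold. For medians and counts it meant a limited shift only, so a count could be classed as unchanged although a call was gained or lost. Signal limited DHCR7 most, which 1 THP-1 DMSO array read below background.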

Other observations

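After each line's mean was removed, the 21 pairs of members had correlations from -0.41 to 0.85 over the 8 arrays, with a median of 0.27. MSMO1 stood at 0.85 with HMGCS1 and at 0.81 with CYP51A1, whereas DHCR7 had -0.41 with IDI1. The arrays share normalization and 2 of them make up each group, so these values are descriptions.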
